A study of Mus musculus with 10 samples.

Results

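The integrated stress response and the serine synthesis pathway were examined in WT31 melanoma cells and in the subline WT31_P5IV through 10 genes chosen by name: Atf4, Ddit3, Asns, Trib3, Chac1 and Sesn2 of the stress response, and Phgdh, Psat1, Psph and Shmt2 of serine synthesis. All 10 were found among the 55385 gene identifiers of the deposited tables, and all 10 were expressed highly enough to be tested. WT31 is a mouse melanoma line from Tyr::NrasQ61K/°; INK4a-/- mice, so that both groups carried the mutant Nras transgene under the tyrosinase promoter and lacked INK4a. WT31_P5IV, called WT31_Passage_5 in the sample labels, is a single subline of it, made by 5 rounds of tail vein injection, recovery of liver metastases and expansion in culture. RNA came from untreated, sub-confluent cultures of both in RPMI medium with 10% fetal calf serum and penicillin/streptomycin, with 5 libraries each. The labels call these biological replicates. As nothing says how the cultures were set up, the p-values measure the spread between these libraries.

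In the integrated stress response, kinases that sense amino acid shortage, unfolded protein in the endoplasmic reticulum (ER), double-stranded RNA or heme shortage phosphorylate the translation factor eIF2. Most translation then falls, while the mRNA of the transcription factor ATF4 is translated more. ATF4 induces genes for amino acid uptake, amino acid synthesis and tRNA charging, among them the enzymes that make serine from the glycolytic intermediate 3-phosphoglycerate. Since ATF4 is largely controlled at translation, its mRNA level does not report its protein level.

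Libraries held 24255389 to 25750639 estimated counts. Levels are given as CPM, counts set to a common library size after scaling by the trimmed mean of M values (TMM), and as TPM, kallisto's transcript abundance, which also corrects for transcript length. WT31 replicates 2 and 3 stood apart from the other WT31 libraries on the second principal component (6.18% of the variance, -17.9 and -16.6 against 3.07 to 20.95). The log2 fold changes of the 10 members are therefore also given without them. In the lists of related genes, leaving them out changed the call of Eif2ak1 and the number of higher amino acid transporters. Leaving them out also changed the number of called mitochondrial stress genes and whether Gdf15 passed the 2-fold filter. Each is given at its place. The melanocyte markers Mlana, Dct, Tyr, Tyrp1, Pmel, Mitf and Sox10 were all expressed, with a summed level of 17027 to 18422 CPM in WT31 and 22203 to 25700 CPM in WT31_P5IV, 3 of the 7 higher and 2 lower. The 4 hepatocyte markers, of which 1 was high enough to be tested and was not called, summed to 0.227 to 0.554 CPM in WT31 and 0.402 to 1.18 CPM in WT31_P5IV, and the 4 endothelial markers, all too low to be tested, to 0.119 to 0.416 CPM and 0.121 to 0.379 CPM. The 4 macrophage and leukocyte markers summed to 0.756 to 2.18 CPM in WT31 and 3.37 to 4.99 CPM in WT31_P5IV, the 1 that could be tested (Cd68) was higher, and the defining marker Ptprc was at 0 to 0.0783 CPM in all libraries. The 4 fibroblast and stellate cell markers summed to 1.57 to 2.19 CPM and 2.73 to 3.40 CPM, with 2 of the 3 tested higher. Of the 4 proliferation markers 3 were higher in WT31_P5IV, with a summed level of 1544 to 1858 CPM in WT31 and 2064 to 2246 CPM in WT31_P5IV. The part of these shifts in the results below was not tested. In bulk RNA, fewer expressing cells and less RNA per cell cannot be told apart.

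The 10 genes did not move as a block. With edgeR's quasi-likelihood test at an adjusted p below 0.05, Trib3 and Phgdh rose in WT31_P5IV, Asns, Chac1 and Psat1 fell, and the other 5 genes, Atf4, Ddit3, Sesn2, Psph and Shmt2, did not pass. The 5 called genes of 10 (50.0%) stand beside 68.5% of all 13620 tested genes, of which 34.6% were higher and 33.9% lower. No member passed the filter of at least a 2-fold change, which 9.19% of all tested genes passed. Libraries of the groups did not overlap in CPM for 4 of the 10 (40.0%), against 54.1% of all tested genes. The median absolute log2 fold change was 0.15 over the members and 0.30 over all tested genes. Both shares of the members lay below those of all tested genes, a difference that was not tested.

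**Figure D1:**
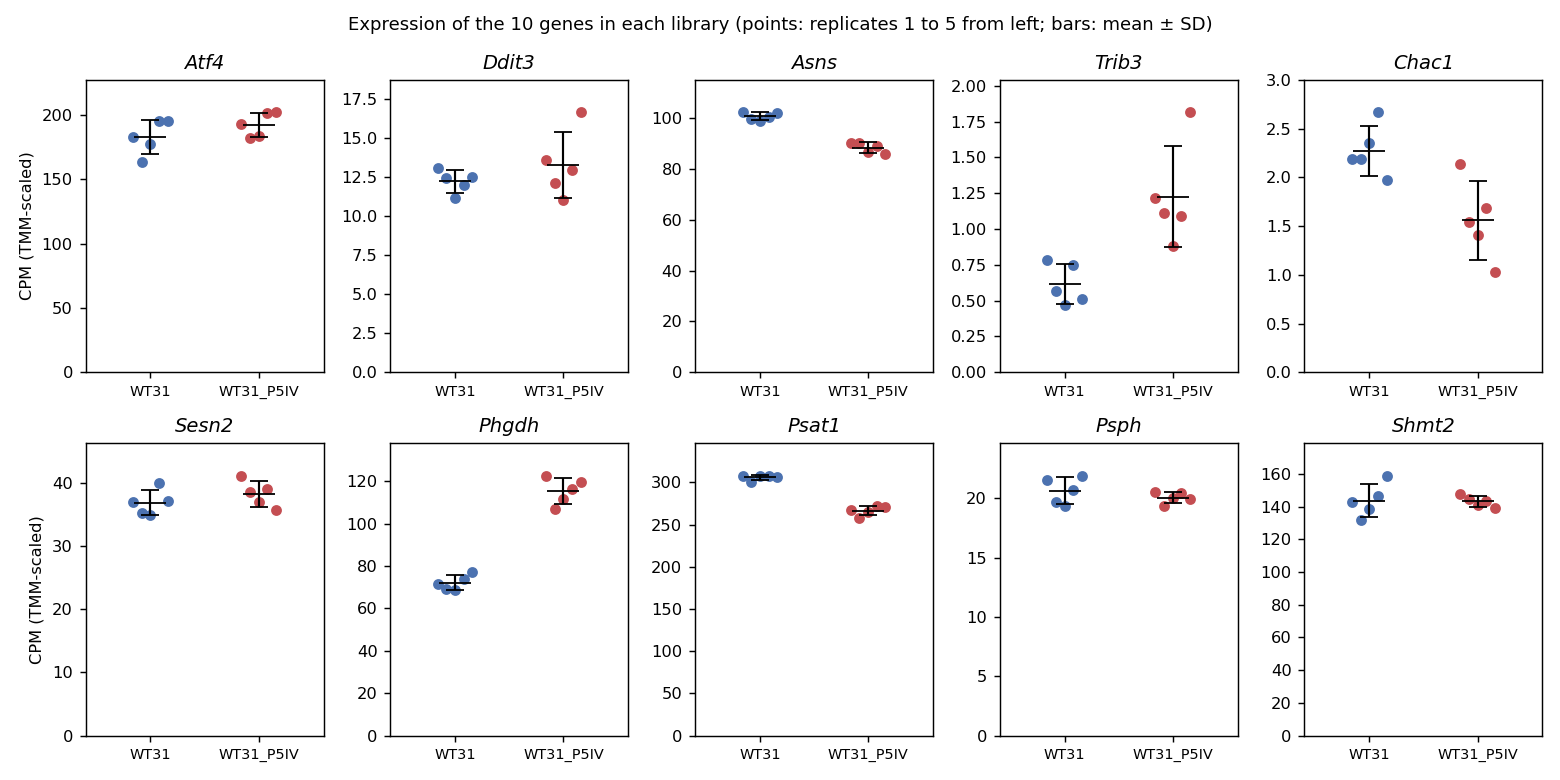
CPM of each of the 10 genes (vertical axes, starting at 0) in the 5 libraries of WT31 (blue) and the 5 of WT31_P5IV (red), with the mean and SD as black bars. The groups separate for Asns, Trib3, Phgdh and Psat1 and overlap for the other genes.

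Per length, Psat1 was the most abundant member in WT31, with 213 ± 5.38 TPM (SD, n = 5). It was followed by Atf4 (178 ± 8.50 TPM), Shmt2 (106 ± 3.96), Asns (83.9 ± 2.22), Phgdh (63.5 ± 1.46), Ddit3 (29.3 ± 2.15), Psph (20.4 ± 0.640), Sesn2 (16.8 ± 0.617), Chac1 (2.36 ± 0.271) and Trib3 (0.598 ± 0.197). The libraries of neighbours in this order did not overlap. In WT31_P5IV, Psat1 (167 ± 6.31 TPM) and Atf4 (166 ± 10.0 TPM) were no longer separable, nor were Chac1 (1.43 ± 0.361 TPM) and Trib3 (1.14 ± 0.563 TPM). Phgdh (90.1 ± 6.05 TPM) stood above Asns (65.5 ± 0.781 TPM) there, the reverse of their order in WT31, and again without overlap.

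The ATF4 branch was described first from its transcription factors. Atf4 (ENSMUSG00000042406.8, chr15:80255184-80257541, plus strand; all positions are from GENCODE M21 on GRCm38) was at 183, 163, 177, 195 and 195 CPM in WT31 replicates 1 to 5 and at 193, 182, 184, 202 and 202 CPM in WT31_P5IV replicates 1 to 5. The ranges overlapped, and the lowest value was that of WT31 replicate 2. Its log2 fold change was 0.07 with a standard error (SE) of 0.05 (edgeR's quasi-likelihood test, adjusted p = 0.207), and -0.00 without WT31 replicates 2 and 3.

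Ddit3 (ENSMUSG00000025408.15, chr10:127290774-127296288, plus strand) encodes CHOP, the transcription factor that ATF4 induces under lasting stress. Its level was 13.1, 12.4, 11.2, 11.97 and 12.5 CPM in WT31 and 13.6, 12.1, 11.0, 13.0 and 16.7 CPM in WT31_P5IV. WT31_P5IV replicate 5 was the highest of the 10 libraries and replicate 3 of the same group the lowest. The log2 fold change was 0.12 (SE 0.09, edgeR's quasi-likelihood test, adjusted p = 0.271), 0.02 without WT31_P5IV replicate 5 and 0.07 without WT31 replicates 2 and 3. The mean log2 ratio of Ddit3 to Atf4 CPM was -3.90 ± 0.13 in WT31 and -3.87 ± 0.17 in WT31_P5IV (exact two-sided permutation test, p = 0.754, n = 5 per group). Of the words of 31 bases in Ddit3 transcripts, 6.78% also occurred in other genes, among them the overlapping Mars, so its counts carry that uncertainty. A second identifier with the symbol Ddit3 was at 0 counts in all libraries and was not used.

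Trib3 (ENSMUSG00000032715.9, chr2:152337422-152344032, minus strand) encodes a pseudokinase that ATF4 and CHOP induce and that restrains them in turn. It was the member with the lowest mean level and, on TMM-scaled counts, the largest change. Its CPM were 0.783, 0.567, 0.470, 0.746 and 0.514 in WT31 and 1.22, 1.11, 0.884, 1.09 and 1.82 in WT31_P5IV. Every WT31_P5IV library was above every WT31 library, with replicate 5 the highest. These levels stood on 12 to 20 counts in a WT31 library and 22 to 44 in a WT31_P5IV library. Trib3 rose with a log2 fold change of 0.99 (SE 0.23, edgeR's quasi-likelihood test, adjusted p = 0.00140), of 0.80 without WT31_P5IV replicate 5 and of 0.83 without WT31 replicates 2 and 3. On the TPM scale the libraries of the groups overlapped, and with 1 added before the logarithm the log2 fold change was 0.39 (limma, adjusted p = 0.0362). Phgdh (0.49) and Chac1 (-0.48) changed more in that setting.

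Chac1 (ENSMUSG00000027313.3, chr2:119351229-119354381, plus strand) encodes an enzyme that degrades glutathione and is a target of ATF4 and CHOP. It was at 2.19, 2.19, 2.35, 2.67 and 1.98 CPM in WT31 and at 2.14, 1.54, 1.41, 1.68 and 1.03 CPM in WT31_P5IV. WT31_P5IV replicate 1 lay within the range of WT31, and replicate 5, the highest library for Ddit3 and Trib3, was the lowest for Chac1. Chac1 fell by 0.55 on the log2 scale (SE 0.17, edgeR's quasi-likelihood test, adjusted p = 0.00989), on 50 to 68 counts in each WT31 library and 25 to 51 in each WT31_P5IV library. Without WT31_P5IV replicate 5 it fell by 0.43 and without WT31 replicates 2 and 3 by 0.56, called in both cases.

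Asns (ENSMUSG00000029752.12, chr6:7675169-7693254, minus strand) encodes asparagine synthetase, a classical target of ATF4 under amino acid shortage. Its CPM were 102, 99.6, 98.7, 100.5 and 102 in WT31 and 90.2, 90.1, 86.4, 88.9 and 86.0 in WT31_P5IV. The groups did not overlap and the spread within each was small. Asns fell by 0.19 on the log2 scale (SE 0.03, edgeR's quasi-likelihood test, adjusted p = 1.07e-04), a mean change of -12.2%. Without WT31 replicates 2 and 3 it fell by 0.22. Of all tested genes, 66.4% had a larger absolute log2 fold change.

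Sesn2 (ENSMUSG00000028893.8, chr4:132492032-132510501, minus strand) encodes a sestrin, a leucine-binding inhibitor of mTORC1 that ATF4 induces. Its level was 36.9, 35.2, 34.9, 39.9 and 37.1 CPM in WT31 and 41.1, 38.5, 36.9, 39.0 and 35.6 CPM in WT31_P5IV. The groups overlapped over most of their range (log2 fold change 0.05, SE 0.05, edgeR's quasi-likelihood test, adjusted p = 0.342), and without WT31 replicates 2 and 3 the value was -0.01. Its paralog Sesn3 fell by 0.62 (133 ± 16.7 to 86.5 ± 1.53 CPM, n = 5 per group) and Sesn1 fell by 0.20 on the log2 scale. Of the paralogs of Trib3 and Chac1, Trib2 rose (log2 fold change 0.50), Trib1 did not pass (-0.01, though called at -0.18 on log2(TPM + 0.1)), and Chac2 fell by 0.74.

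ATF4 binds with C/EBP proteins to a composite element, here searched as TGATGNAA on both strands in the 250 bases before and 50 bases after each start site (RefSeq, GRCm38.p6). It was found in 3 of the 10 members and in 4.51% of the 27025 genes with such a window. The 3 matches are shown, 5′ to 3′ on the strand of the gene with the match in capitals, since they belong to the 3 stress genes that were called.
Asns, chr6:7693215-7693242, minus strand, match in the searched orientation 23 bases before the RefSeq start at 7693209: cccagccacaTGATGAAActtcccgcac
Trib3, chr2:152344029-152344056, minus strand, match in the opposite orientation 14 bases after the RefSeq start at 152344060: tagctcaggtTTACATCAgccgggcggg
Chac1, chr2:119351039-119351066, plus strand, match in the opposite orientation 193 bases before the RefSeq start at 119351242: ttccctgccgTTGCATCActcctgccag
GENCODE M21 places the starts elsewhere, so that by its models the match lies 22 bases after the start of Asns, 14 bases before that of Trib3 and 180 bases before that of Chac1. Of these 3 genes, Trib3 rose and Asns and Chac1 fell. A match describes letters in this window only and is not a measured binding site.

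Serine synthesis runs from 3-phosphoglycerate through PHGDH, the dehydrogenase of the first step, PSAT1, the aminotransferase of the second, and PSPH, the phosphatase that releases serine. The first and second steps changed in opposite directions and the third did not pass the test. Phgdh (ENSMUSG00000053398.11, chr3:98313170-98339990, minus strand) was at 71.5, 69.2, 68.95, 73.8 and 77.3 CPM in WT31 and at 123, 107, 112, 116 and 119 CPM in WT31_P5IV. The lowest WT31_P5IV library was far above the highest WT31 library. Phgdh rose by 60.0% (log2 fold change 0.68, SE 0.05, edgeR's quasi-likelihood test, adjusted p = 8.27e-09), and the log2 fold change was 0.62 without WT31 replicates 2 and 3. Other genes, mostly pseudogenes, held 56.3% of the 31-base words of Phgdh. The 24 genes that shared at least 1% of them summed to 2 to 8 estimated counts per library, against 1760 to 2921 for Phgdh. These estimates come from kallisto's own assignment of the shared reads and cannot check that assignment.

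Psat1 (ENSMUSG00000024640.9, chr19:15904678-15947337, minus strand) was at 307, 300.3, 308, 307 and 307 CPM in WT31 and at 267, 258, 265, 272 and 271 CPM in WT31_P5IV. The groups did not overlap, and WT31 replicate 2 was the lowest of its group. Psat1 fell by 0.20 on the log2 scale (SE 0.03, edgeR's quasi-likelihood test, adjusted p = 3.73e-05), a mean change of -12.8%. Its fall without WT31 replicates 2 and 3 was also called, with a log2 fold change of -0.22.

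Psph (ENSMUSG00000029446.14, chr5:129765558-129787449, minus strand) was at 21.5, 19.7, 19.4, 20.7 and 21.9 CPM in WT31 and at 20.5, 19.3, 20.01, 20.5 and 19.9 CPM in WT31_P5IV. The groups overlapped (log2 fold change -0.04, SE 0.05, edgeR's quasi-likelihood test, adjusted p = 0.452). Psph shares 9.45% of its 31-base words with Cct6a, its overlapping neighbour on the opposite strand, which had 8493 to 12237 counts per library, so part of its estimate may depend on how those reads were assigned.

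Shmt2 (ENSMUSG00000025403.5, chr10:127517123-127522444, minus strand) encodes the mitochondrial enzyme that converts serine to glycine and passes a one-carbon unit to folate. Its CPM were 143, 132, 138, 146 and 159 in WT31 and 148, 144, 141, 143 and 139 in WT31_P5IV. All WT31_P5IV libraries lay within the range of WT31 (log2 fold change -0.00, SE 0.05, edgeR's quasi-likelihood test, adjusted p = 0.945). Among the WT31 libraries, replicates 2 and 3 had the lowest CPM of Atf4, Asns, Sesn2, Phgdh, Psph and Shmt2. On TPM this held for Atf4 and Shmt2 but not for the others, and Asns was highest in replicates 2 and 3. Sesn2, Psat1 and Shmt2 overlap the annotated genes Gm12981, Gm3329 and Ndufa4l2, respectively, and shared 0, 2.18 and 3.61% of their 31-base words with other genes. The log2 fold change of Shmt2 without WT31 replicates 2 and 3 was -0.08 and that of Psph -0.11, neither of them called.

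**Figure D2:**
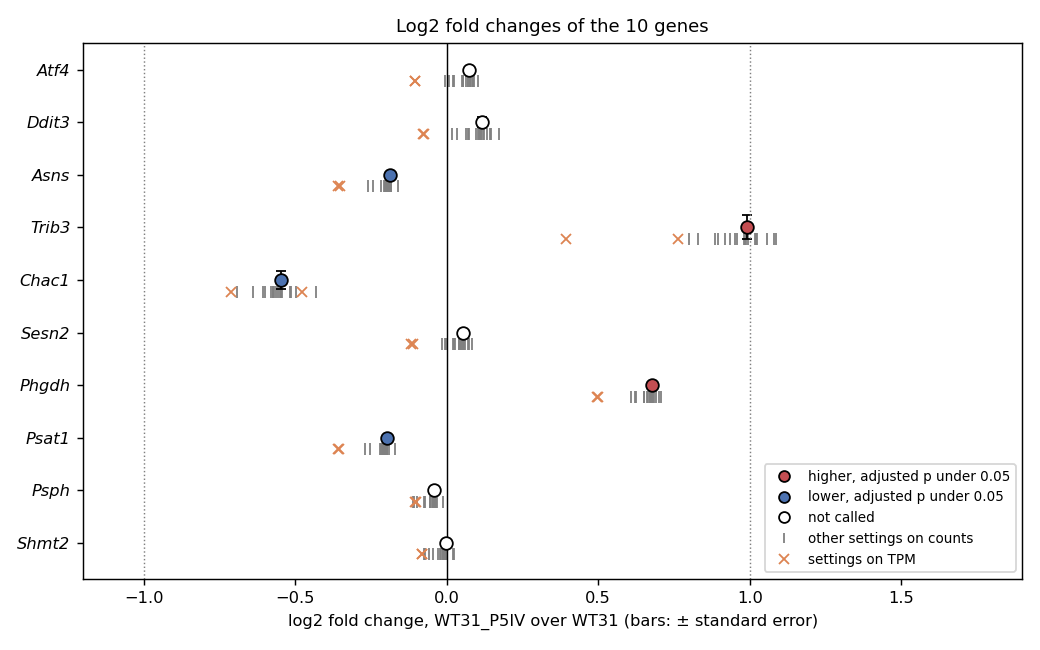
Log2 fold change of WT31_P5IV over WT31 for each gene (horizontal axis; circles, with ± standard error as bars), coloured by call in edgeR's quasi-likelihood test, with the values under other settings on counts (grey ticks) and on TPM (orange crosses) below each. Trib3 (0.99) and Phgdh (0.68) lie to the right of 0, and Asns (-0.19), Chac1 (-0.55) and Psat1 (-0.20) to the left, under all settings shown.

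On the TPM scale log2 fold changes of all genes shifted by a median of -0.17 (limma on log2(TPM + 0.1)), and 32.9% of the called genes were higher in WT31_P5IV, against 50.5% with TMM-scaled counts. The members' log2 fold changes lay lower on that scale: Phgdh was at 0.50, Asns and Psat1 at -0.36, and Atf4, Ddit3 and Sesn2, not called on either scale, turned to -0.10, -0.08 and -0.12. Relative to that shift, the values were 0.67 for Phgdh, 0.93 for Trib3, -0.19 for Asns and for Psat1, -0.54 for Chac1 and 0.06 for Atf4.

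The ratio of the mitochondrial to the cytosolic form differed between the groups at both folate steps compared. Shmt1, the cytosolic counterpart of Shmt2, rose from 28.9 ± 1.09 to 40.1 ± 1.51 CPM (log2 fold change 0.47, SE 0.04, edgeR's quasi-likelihood test, adjusted p = 1.33e-07). The mean log2 ratio of Shmt2 to Shmt1 CPM was 2.31 ± 0.12 in WT31 and 1.84 ± 0.06 in WT31_P5IV, a difference of -0.47 (exact two-sided permutation test, p = 0.00794, n = 5 per group, adjusted p = 0.0119 over 3 ratios). The ratio ran from 4.33 to 5.44 in WT31 and from 3.39 to 3.80 in WT31_P5IV, without overlap. The next step went the other way. Mthfd2, the mitochondrial dehydrogenase and cyclohydrolase, rose from 46.8 ± 1.05 to 53.8 ± 1.88 CPM, and Mthfd1, the cytosolic enzyme, fell by 0.36 on the log2 scale, from 146 ± 2.05 to 114 ± 1.76 CPM. The log2 ratio of Mthfd2 to Mthfd1 went from -1.64 ± 0.05 to -1.08 ± 0.06, a difference of 0.56 (exact two-sided permutation test, p = 0.00794, n = 5 per group, adjusted p = 0.0119). On TPM the rise of Mthfd2 was not called. The p of 0.00794 is the smallest that 5 against 5 libraries can give. Any complete separation of the groups gives it, and 54.1% of all tested genes separated in CPM.

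**Figure D3:**
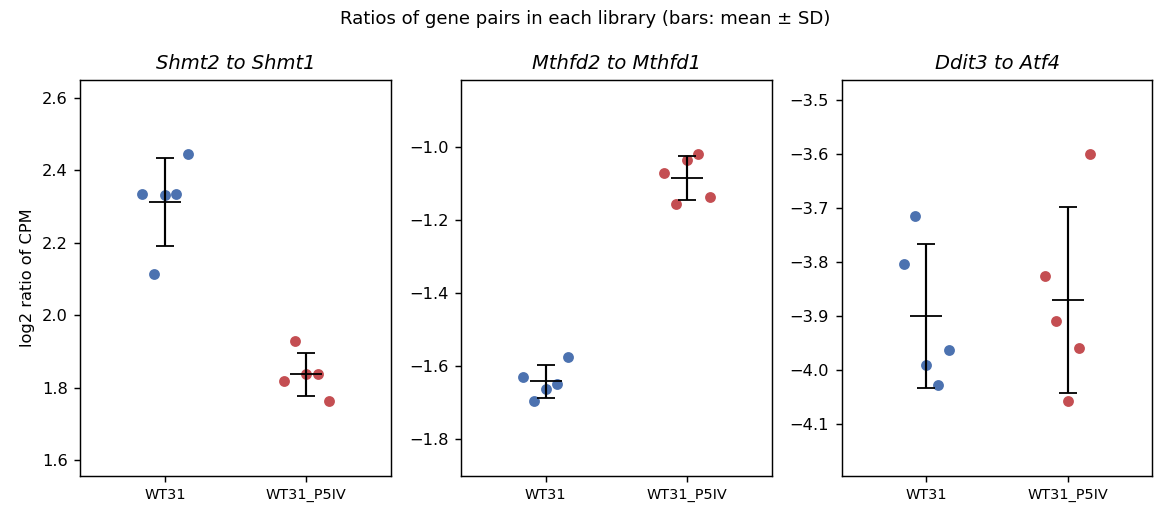
Log2 ratio of the CPM of 3 gene pairs in each library (vertical axes, separate scales that do not start at 0) in WT31 (blue) and WT31_P5IV (red), with mean and SD as black bars. The ratio of Shmt2 to Shmt1 is lower and that of Mthfd2 to Mthfd1 higher in WT31_P5IV without overlap, and the ratio of Ddit3 to Atf4 overlaps.

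Around the members, 11 lists of related genes held 125 tested genes, of which 44 were higher and 54 lower, 78.4% called in all against the 68.5% of all tested genes. On log2(TPM + 0.1) and on log2(TPM + 1), 33 were higher and 65 lower, and the settings on counts gave 39 to 46 higher and 51 to 58 lower. Upstream, the eIF2 kinases differed among themselves. Eif2ak3, the gene of the ER-stress kinase PERK, rose from 35.4 ± 1.61 to 62.9 ± 4.49 CPM (log2 fold change 0.83, SE 0.05, edgeR's quasi-likelihood test, adjusted p = 3.25e-09). Eif2ak2, which encodes the double-stranded RNA sensor PKR, fell by 0.58, from 26.6 ± 3.25 to 17.8 ± 1.71 CPM (adjusted p = 2.44e-05). Eif2ak4 (GCN2, the sensor of uncharged tRNA) and Eif2ak1 (HRI, regulated by heme) did not pass, with log2 fold changes of -0.04 and -0.07. On log2(TPM + 0.1) both were called lower, at -0.21 and -0.25. Eif2ak1 was called lower in 10 of its 20 alternatives, among them DESeq2 (-0.08, adjusted p = 0.0433), all genes with at least 1 count (-0.13) and limma voom without scaling or filter (-0.14). It also passed without WT31 replicate 2, 3 or 5 (-0.09 each), without WT31 replicates 2 and 3 together (-0.11) or without WT31_P5IV replicate 2 (-0.10). Gcn1l1, an activator of GCN2, rose (0.52), as did Ppp1r15b, a subunit of the eIF2 phosphatase (0.41). Eif2s1, the eIF2 subunit that the kinases phosphorylate, fell by 0.46. Eif2a, a gene listed with the eIF2 node, fell by 0.41. In all, 3 of 10 genes of this list were higher and 3 lower (median log2 fold change -0.06, against 0.01 over all tested genes). The number lower was 6 on log2(TPM + 0.1), 5 among all genes with at least 1 count and 5 without WT31 replicate 5.

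Of the 5 subunits of eIF2B, the exchange factor that phosphorylated eIF2 inhibits, 3 were lower and none higher (median -0.19): Eif2b1 fell by 0.36, Eif2b5 by 0.33 and Eif2b4 by 0.19. On TPM all 5 were called. Of 7 tested partner and stress transcription factors, 6 were lower and none higher (median -0.30), though 1 was higher without WT31 replicate 5. Atf3, itself induced by ATF4, fell by 0.91, from 9.24 ± 0.648 to 4.90 ± 0.131 CPM. Cebpg, a dimer partner of ATF4, fell by 0.38, and Myc by the same amount.

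Among 12 further genes linked to ATF4, 3 were higher and 6 lower (median -0.13), and 2 of them passed the 2-fold filter, in opposite directions. Stc2, which encodes the secreted glycoprotein stanniocalcin 2, was at 46 to 65 counts in WT31 libraries and at 2 to 5 in those of WT31_P5IV, and fell by 3.72 on the log2 scale (edgeR's quasi-likelihood test, adjusted p = 2.30e-09). The size of this fall depends on the value added before the logarithm: on log2(TPM + 1) the log2 fold change was -0.78, called too. The gene was not tested under the filter of at least 10 counts in every library. Gdf15, the gene of a stress-induced cytokine, rose from 24.4 ± 4.11 to 52.1 ± 6.46 CPM (1.10, adjusted p = 3.46e-07). It remained called but missed the 2-fold filter without WT31 replicates 2 and 3 (0.95), on log2(TPM + 0.1) (0.91) and on log2(TPM + 1) (0.89). Vldlr, a lipoprotein receptor gene, rose (0.39) and Ndrg1 fell by 0.81.

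The amino acid transporters formed the list with the largest share of higher genes among the 11. Of 13 tested, 10 were higher and 2 lower (median 0.52), and 11 were higher without WT31 replicates 2 and 3. With a replicate block, with upper-quartile scaling or without WT31_P5IV replicate 4, the ER genes described below had the larger share (15 of 19 higher). Slc38a2, which encodes the small neutral amino acid carrier SNAT2, rose from 251 ± 16.8 to 467 ± 35.5 CPM (0.90, edgeR's quasi-likelihood test, adjusted p = 4.41e-09). Slc43a1 (0.83) and the glycine transporter gene Slc6a9 (0.76) rose as well. Slc7a11, the cystine transporter subunit, went the other way and fell by 1.56, from 394 ± 56.4 to 134 ± 11.6 CPM (adjusted p = 1.18e-09). Sfxn1, the mitochondrial serine transporter, fell by 0.40.

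The genes of tRNA charging were mostly lower. Of 13 genes of the ATF4 programme (12 cytosolic synthetases and Xpot), 11 were lower and 2 higher (median -0.23), and of 8 other cytosolic synthetase genes 5 were lower and 1 higher (median -0.30). Nars, the asparaginyl-tRNA synthetase gene, fell by 0.45 from 206 ± 2.26 to 151 ± 3.62 CPM, Tars by 0.41 and Lars by 0.38. Gars (0.21) and Mars (0.14) rose, calls that were both lost on TPM. The call of Mars was also lost among all genes with at least 1 count (0.09) and with limma voom without scaling or filter (0.07). Outside the programme, Dars fell by 0.54, Rars by 0.48 and Hars by 0.36, and Vars rose (0.28). Without WT31 replicate 5 or with upper-quartile scaling, 2 genes of that list were higher.

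The 16 tested folate and glycine genes were split, with 7 higher and 6 lower (median -0.04), and 4 higher on log2(TPM + 0.1). Amt, a subunit of the glycine cleavage system, rose (0.83, from 6.72 ± 0.375 to 11.9 ± 0.648 CPM), and the folate carrier gene Slc19a1 rose (0.53). Aldh1l2, a mitochondrial formyltetrahydrofolate dehydrogenase gene, fell by 0.82, and the mitochondrial folate carrier gene Slc25a32 by 0.49. Among 13 other genes of non-essential amino acid metabolism, 2 were higher and 7 lower (median -0.11). Gpt2, the mitochondrial alanine aminotransferase gene, fell by 0.76, Srr, which converts L-serine to D-serine, by 0.71, and Bcat2 by 0.53. Sdsl, a serine dehydratase-like gene, rose on few counts (17 to 36 in WT31 libraries, 53 to 82 in those of WT31_P5IV, log2 fold change 1.36). Gpt rose (0.43), but this call was lost on TPM, with limma voom without scaling or filter (0.34), and without WT31 replicate 1 (0.35), WT31_P5IV replicate 1 (0.36) or WT31_P5IV replicate 5 (0.34).

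The ER chaperone genes and the IRE1 and ATF6 branches of the unfolded protein response, which act beside PERK, had 14 of 19 genes higher and 3 lower (median 0.45), and 9 higher on log2(TPM + 0.1). Pdia4, a protein disulfide isomerase gene, rose from 188 ± 5.53 to 343 ± 17.9 CPM (0.87, edgeR's quasi-likelihood test, adjusted p = 1.64e-10), the chaperone gene Hyou1 from 178 ± 4.36 to 299 ± 15.9 CPM (0.75) and Edem1 by 0.60. Sdf2l1 fell by 0.31, Dnajb11 by 0.18 and Manf by 0.13. The call of Manf was lost with upper-quartile scaling (-0.10) and without WT31_P5IV replicate 2 (-0.12) or 4 (-0.12). Mitochondrial stress genes had 2 of 9 higher and 2 lower (median -0.05): Atad3a (0.36) and Dele1 (0.30), whose product relays mitochondrial stress to HRI, rose, and the chaperone genes Hspd1 and Hspa9 fell by 0.46 and 0.35. Of these 9 genes, 7 were called without WT31 replicates 2 and 3, and likewise 7 on TPM, with 4 and 5 of them lower. By list, the called share was 44.4% in mitochondrial stress genes and 60.0% both in the eIF2 node and in eIF2B. It was 69.2% in other non-essential amino acid genes and 75.0 to 100% in the remaining lists. Over all tested genes it was 68.5%, with 34.6% higher and 33.9% lower.

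**Figure D4:**
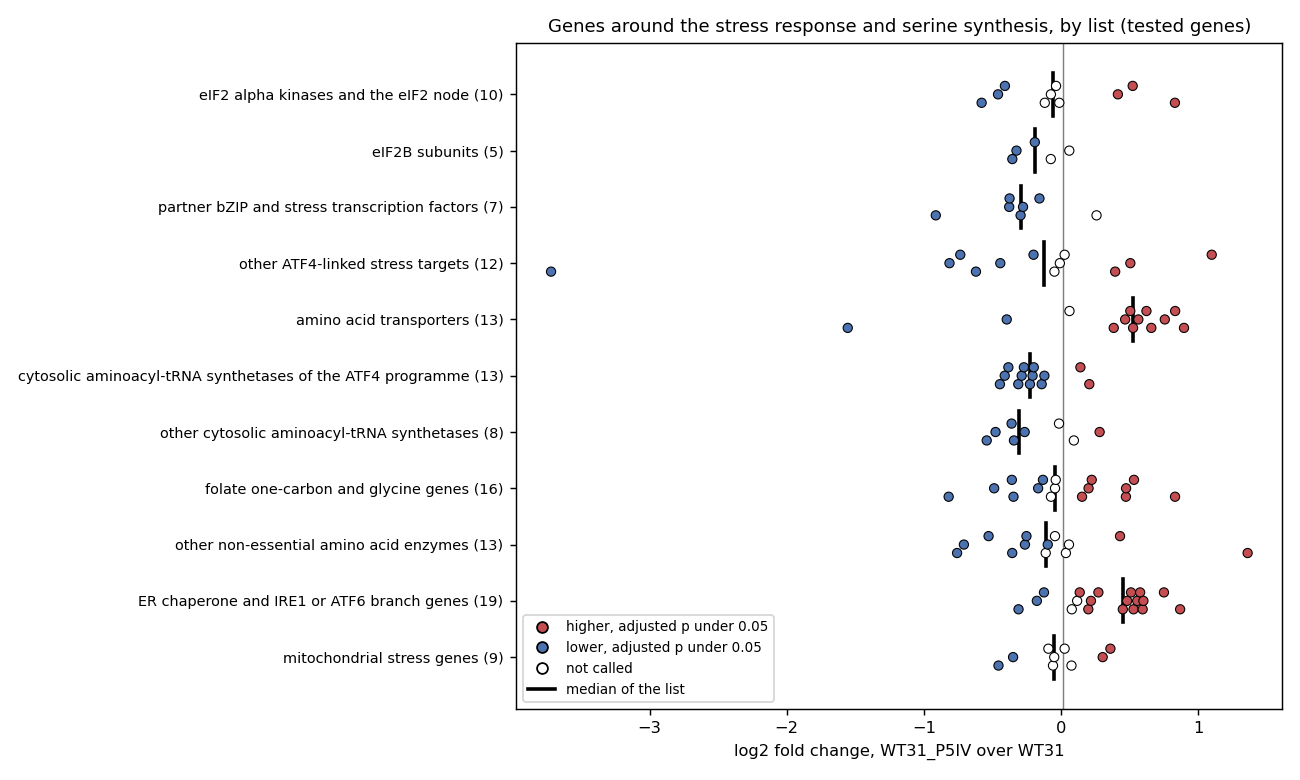
Log2 fold change of WT31_P5IV over WT31 (horizontal axis) for each tested gene of 11 lists (rows, number tested in brackets), coloured by call in edgeR's quasi-likelihood test, with the median of each list as a black bar and that of all tested genes as a grey line. Amino acid transporters (median 0.52) and ER genes (0.45) lie mostly to the right and tRNA synthetases (-0.23 and -0.30) mostly to the left.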

How the data were processed

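RNA-seq of cultured WT31 and WT31_P5IV cells was used, with 5 libraries per group, numbered as in the sample titles. For WT31 the file labels carry other numbers. Per the submitters' processing notes, the authors trimmed reads with Trim Galore 0.6.4 and used kallisto 0.4.6 with GRCm38.p6. The study's methods give another version number for kallisto. The series description names an Illumina and the extraction protocol a BGI instrument, so the platform is unclear. The authors deposited expected counts, kallisto's estimated counts per gene, and TPM values per gene. Strand use of the counting is not given in the sources used here. Of 55385 identifiers, 55144 were matched to GENCODE M21 for symbols.

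Estimated counts were rounded to whole numbers. Genes were kept by filterByExpr (13620 of 31234 with at least 1 count) and compared with edgeR 4.0.16 (R 4.3.3) with TMM scaling and its quasi-likelihood test. Adjusted p-values are Benjamini-Hochberg values over all genes tested. A gene was called at an adjusted p under 0.05. Log2 fold changes had no prior count, and the SE was derived from the F statistic. No pair of libraries of one group agreed within sampling noise (chi-square per degree of freedom of at least 2.35). On simulated data with 200 of 13620 genes changed, the test recovered 52% of genes at an absolute log2 fold change of 0.25, 86% at 0.5 and 96% at 1, with 8 false calls. In the data 68.5% of genes were called, so these figures need not hold for this comparison. Ratios were compared by an exact permutation test over libraries. Depth was 24255389 to 25750639 estimated counts per library, and 3 counts correspond to 0.117 to 0.124 CPM. This floor covers counting error only.

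Alternatives were DESeq2 1.42.0, limma 3.58.1 (voom, with TMM and without scaling or filter, and on TPM with 0.1 or 1 added), upper-quartile scaling, other count filters, a replicate block and leaving out each library. Leaving out WT31 replicates 2 and 3 together was chosen after seeing the data. Named genes were the members, the 4 eIF2 kinases, Shmt1, Mthfd1, Mthfd2, paralogs of members, and up to 3 called genes with the largest and 3 with the smallest log2 fold change per list. The members and lists were chosen with earlier results of these data known. Genes sharing sequence were found by words of 31 bases in transcripts, and promoters were taken from RefSeq (GRCm38.p6). Python 3.11.15, numpy 2.4.6, pandas 2.3.3 and scipy 1.17.1 were used.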

Additional observations from a re-analysis of the deposited data

Results flagged for a closer look

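In 138 groups of 5 libraries, 1 group per gene and cell line, 7 held a library that Dixon's test set apart, against 6.9 expected by chance. Psat1 was at 300.3 CPM in WT31 replicate 2 and at 306.9 to 308.0 CPM in the other WT31 libraries, and was the single member among the 7. In WT31, Sesn1 was at 22.88 CPM in replicate 3 (others 19.98 to 20.81) and Srr at 26.38 CPM in replicate 1 (others 28.52 to 29.3). In WT31_P5IV, Eif2b1 was at 40.21 CPM in replicate 3 (others 41.59 to 42.11) and Hspa9 at 342.4 CPM in replicate 1 (others 362.4 to 367.7). In WT31_P5IV replicate 2, Mthfd1 was at 116.9 CPM (others 112.4 to 113.4) and Dele1 at 94.86 CPM (others 82.44 to 86.03).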

How the results depend on the processing

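The calls of Trib3, Phgdh, Asns, Chac1 and Psat1 and their directions held in each of the 20 alternatives, with log2 fold changes of 0.39 to 1.09, 0.49 to 0.71, -0.36 to -0.16, -0.71 to -0.43 and -0.36 to -0.17. Shmt2 was called with limma on log2(TPM + 1) (-0.081, adjusted p = 0.0476) and in no other. Its values ran from -0.08 to 0.02. Atf4 (-0.10 to 0.10), Ddit3 (-0.08 to 0.17), Sesn2 (-0.12 to 0.08) and Shmt2 changed sign, with the positive values of Shmt2 not called and the other genes called in none. The number of members past the 2-fold filter was 1 (Trib3) with upper-quartile scaling and 0 to 1 when single libraries were left out. Of 1179 values of 59 other named genes, 1148 kept their call or lack of one, 17 lost and 14 gained a call, and no called value changed sign. The uncalled Trib1 changed sign in 3 of them. Same-numbered replicates did not deviate together (correlations -0.10 to 0.18, best match in 2 of 5), so they share only a number. WT31 files carry other numbers than the sample titles used here. The 4 pairs that the files' numbers would give had correlations of -0.16 to 0.07, and no block was fitted on them. With the title numbers as a replicate block no member's call changed, and the differences in log2 ratio were -0.47 (Shmt2 to Shmt1) and 0.56 (Mthfd2 to Mthfd1) with an adjusted p of 0.0938 by exact sign flips, as 5 pairs cannot pass 0.05. Depth limits Trib3, with 12 to 44 counts per library, and Chac1, with 25 to 68.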
